A study of Rattus norvegicus with 11 samples.

Results

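The genes of 3 subunits of the N-methyl-D-aspartate (NMDA) receptor, Grin1 (ENSRNOG00000011726), Grin2a (ENSRNOG00000033942) and Grin2b (ENSRNOG00000008766), were followed in the rat medial prefrontal cortex (mPFC). These 3 genes were located by their Ensembl identifiers, and all 3 were among the 15607 genes of the deposited table. Their transcripts were measured by RNA sequencing in punches of Sprague-Dawley rats aged 2 to 3 months, of which 4 were females in diestrus, 3 were females in proestrus and 4 were males. Females were staged by daily vaginal smears, and each library is 1 animal as far as the study's methods give it. Tissue was taken early on the first day of diestrus but in the afternoon of proestrus, so that the stage of the cycle and the hour of collection cannot be told apart. The authors had left out 1 proestrus library as an outlier, and it was not analysed here.

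The NMDA receptor is a glutamate-gated calcium channel that opens when glutamate and a co-agonist are bound and the membrane is depolarized. Each receptor combines obligatory GluN1 subunits, encoded by Grin1, which bind the co-agonist glycine or D-serine, with GluN2 subunits, which bind glutamate. Grin2a encodes GluN2A and Grin2b encodes GluN2B, which differ in channel kinetics and in the proteins they bind inside the cell. In the forebrain GluN2B prevails early in development and GluN2A rises after birth, so that the ratio of both subunits is a common readout of synaptic maturity and plasticity. The libraries come from bulk tissue, in which fewer cells of a type and less RNA per cell cannot be told apart.

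Each library held 15.9 to 24.6 M reads on genes. Grin1 was read deeply, with 11955 to 17419 reads per library, and 167 genes had a higher mean normalized count. Grin2b had 350 to 890 reads per library, above the count of 61.3% of the genes, and Grin2a had 50 to 99, above that of 30.5%. Grin2a thus had the fewest reads of the 3 genes. Whether its gene model is complete or shares reads with another gene was not tested, which limits what its values and the ratio stand for. Read numbers depend on the length of each gene model, so that they do not rank the 3 subunits by transcript level. Counting error alone was 0.758% to 0.915% of a value for Grin1, 3.35% to 5.35% for Grin2b and 10.1% to 14.1% for Grin2a. Values of Grin2a from single libraries are therefore the least precise of the 3.

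None of the 3 genes passed the 5% false discovery rate (FDR) in any of 4 comparisons with limma: 0 of the 12 tests passed, and 0 had an unadjusted p below 0.05. Of all 15607 genes, 4169 had such an unadjusted limma p between the stages, 1766 between proestrus and males, 1501 between diestrus and males and 754 between all females and males. On the recovered reads, the edgeR quasi-likelihood test and DESeq2 also called 0 of 12. At an unadjusted p below 0.05 stood Grin2b in diestrus vs males, as did 1506 of 15607 genes in edgeR and 1457 of 15606 in DESeq2, and Grin1 in proestrus vs diestrus in DESeq2, as did 4198 of 15606 genes. DESeq2 called 1076 genes in proestrus vs diestrus, and edgeR 422. Among all genes, 2.53% passed with limma in proestrus vs diestrus. The share was 0.0833% between proestrus and males, 0.128% between diestrus and males, and 0.135% between all females and males. Leaving out each of the 11 libraries in turn gave 132 further tests of the 3 genes, of which 0 passed the FDR and 3 had an unadjusted p below 0.05. These were Grin1 in proestrus vs diestrus without diestrus replicate 5, where 5543 of 15607 genes had such a p, and Grin2b without diestrus replicate 3 against proestrus (2453 genes) and against males (966 genes). The intervals of the differences are therefore given for each gene, since a test that is not passed does not show equal levels.

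**Figure D1:**
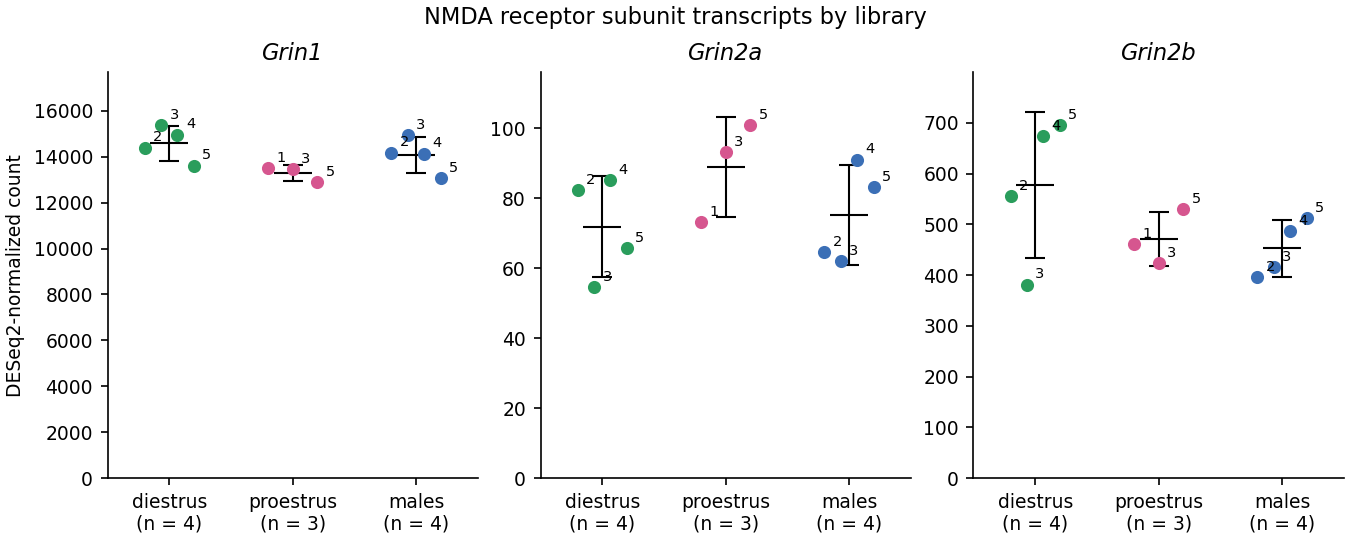
DESeq2-normalized counts (vertical axes, each from 0) of Grin1, Grin2a and Grin2b in the 4 diestrus, 3 proestrus and 4 male libraries; points are single libraries with their replicate numbers, and horizontal marks and bars are the mean ± SD of each group. The 3 proestrus values of Grin1 lie just below the 4 diestrus values, and diestrus replicate 3 is the lowest of all libraries for both Grin2a and Grin2b.

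Grin1, the obligatory subunit, had the smallest relative spread of the 3 transcripts, but also the most reads. Whether it was steadier than genes of like read number was not tested. In diestrus its normalized counts were 14395, 15371, 14962 and 13615 in replicates 2, 3, 4 and 5. In proestrus they were 13502, 13467 and 12899 in replicates 1, 3 and 5. In males they were 14172, 14950, 14132 and 13054 in replicates 2 to 5. All 3 proestrus values lay below all 4 diestrus values, by a margin that is narrow beside the spread within diestrus, whereas males overlapped with both stages. Groups without any overlap were frequent in this comparison, at 26.6% of all genes, so that this separation does not set Grin1 apart. The group means were 14586 ± 761 for the 4 diestrus females, 14077 ± 779 for the 4 males and 13289 ± 339 for the 3 proestrus females (all SD).

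The log2 fold change of Grin1 in proestrus vs diestrus was −0.13 (SE 0.07, limma adjusted p = 0.209), with a 95% confidence interval from −0.28 to 0.01. As a fold this is 0.912, with an interval of 0.826 to 1.01. When compared to males, Grin1 differed by −0.08 (log2) in proestrus (95% interval −0.22 to 0.06, limma adjusted p = 0.608) and by 0.05 in diestrus (−0.08 to 0.18, limma adjusted p = 0.758). Females without regard to stage differed from males by −0.01 (−0.14 to 0.13, limma adjusted p = 1.0), a value that turned to 0.02 without male replicate 3. With single libraries left out, Grin1 ranged from −0.17 to −0.11 in proestrus vs diestrus, from −0.12 to −0.05 relative to males in proestrus and from 0.02 to 0.08 in diestrus. In each of these comparisons the interval of Grin1 was the narrowest of the 3 genes.

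The Grin1 difference between both stages took different values under different scalings of the libraries. Size factors equalize the median gene, and after them the normalized counts summed to 18.5 to 18.9 M in proestrus but 19.2 to 20.6 M in diestrus and 18.6 to 19.9 M in males. Over the 11 libraries, Grin1 followed this sum with r = 0.80, a description over values that share the size factor. When scaled to total reads, Grin1 followed it with r = 0.28. The same 2 values were −0.61 and −0.71 for Grin2a, and −0.15 and −0.32 for Grin2b. As a share of all reads on genes, Grin1 was 708 to 771 reads per M in diestrus, 682 to 729 in proestrus and 700.4 to 754 in males, so that all 3 groups overlapped. On this scale its log2 fold change in proestrus vs diestrus was −0.05 (limma adjusted p = 0.622), but the median of all genes also moved, by 0.09 to 0.07, so that Grin1 relative to the median gene was about as low as with size factors. After quantile normalization the Grin1 value was −0.01 (limma adjusted p = 0.906), with the median gene at −0.06. Its sign in proestrus vs males was positive after quantile normalization (0.004), in diestrus vs males it was negative on the scale of total reads (−0.001), which moved the median gene by −0.05, and in females vs males it was positive after quantile normalization (0.01).

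**Figure D2:**
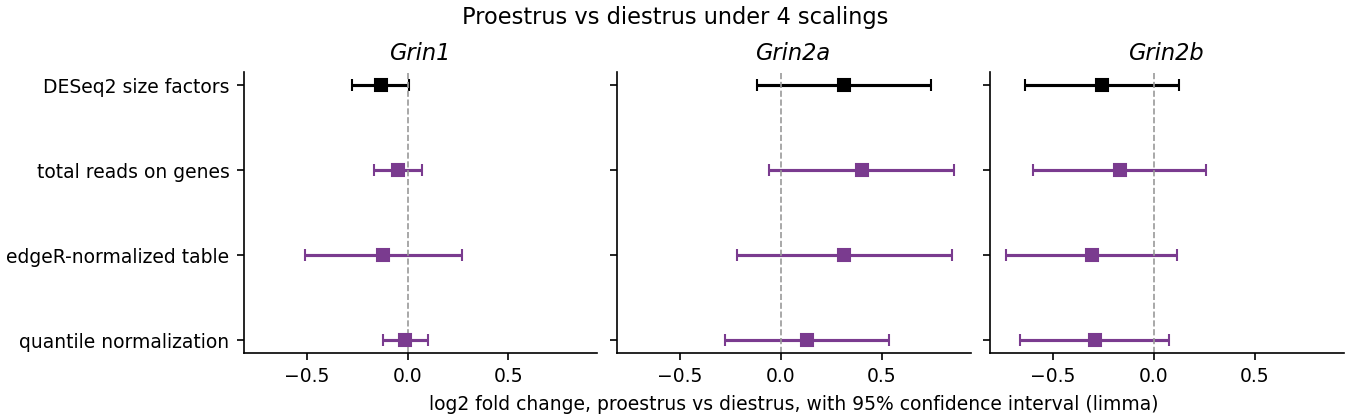
Log2 fold change of proestrus vs diestrus (horizontal axis) for Grin1, Grin2a and Grin2b under 4 scalings of the libraries (vertical axis); squares are limma estimates and bars are 95% confidence intervals. The Grin1 difference is −0.13 with size factors, −0.05 with total reads, where the median of all genes moved by 0.09, and −0.01 with quantile normalization, while Grin2a stays above 0 and Grin2b below 0 in all 4.

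Grin2a, which encodes the GluN2 subunit of the mature synapse, had its highest group mean in proestrus. Its normalized counts were 73.2, 93.1 and 101 in proestrus replicates 1, 3 and 5. In diestrus they were 82.3, 54.5, 85.3 and 65.7 in replicates 2 to 5. In males they were 64.6, 62.0, 91.0 and 83.2 in replicates 2 to 5. The 2 highest values of all belonged to proestrus replicates 3 and 5 and the lowest to diestrus replicate 3, yet proestrus replicate 1 lay within the range of both other groups. The means were 89.1 ± 14.3 for the 3 proestrus females, 75.2 ± 14.2 for the 4 males and 71.9 ± 14.5 for the 4 diestrus females (all SD).

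The log2 fold change of Grin2a in proestrus vs diestrus was 0.31 (SE 0.20, limma adjusted p = 0.309), with a 95% interval from −0.12 to 0.75. This interval spans folds from 0.921 to 1.68, so that neither a difference between both stages nor equal levels were shown. Against males the values were 0.25 in proestrus (95% interval −0.19 to 0.68, limma adjusted p = 0.61) and −0.07 in diestrus (−0.47 to 0.33, limma adjusted p = 0.903). The sign in diestrus vs males turned to 0.06 without diestrus replicate 3, to 0.03 without male replicate 4 and to 0.02 after quantile normalization. In females vs males the value was 0.07 (−0.31 to 0.45, limma adjusted p = 1.0), and it turned to −0.02 without male replicate 3. The proestrus vs diestrus value ranged from 0.19 without diestrus replicate 3 to 0.45 without proestrus replicate 1. It was 0.13 after quantile normalization and 0.59 with the replicate number as a block (limma adjusted p = 0.102). The proestrus value against males ranged from 0.15 without proestrus replicate 5 to 0.38 without proestrus replicate 1. It was also 0.15 after quantile normalization, and 0.52 with the block (limma adjusted p = 0.352).

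Grin2b, which encodes the subunit with the slower channel, had its highest group mean in diestrus and its widest spread there. Its normalized counts were 556, 382, 674 and 696 in diestrus replicates 2, 3, 4 and 5. In proestrus they were 461, 424 and 530.0 in replicates 1, 3 and 5. In males they were 396, 416, 487 and 513 in replicates 2 to 5. Diestrus replicates 2, 4 and 5 exceeded all males and all proestrus females, whereas diestrus replicate 3 was the lowest of the 11 libraries. The coefficient of variation was 24.9% in diestrus, against 12.3% in males and 11.4% in proestrus.

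The mean of Grin2b was 577 ± 144 for the 4 diestrus females, 472 ± 53.8 for the 3 proestrus females and 453 ± 55.9 for the 4 males (all SD). The log2 fold change in diestrus vs males was 0.32 (SE 0.16, limma adjusted p = 0.557), with a 95% interval from −0.04 to 0.67. Of all genes, 93.9% had a lower value in this comparison. In proestrus vs diestrus it was −0.26 (SE 0.18, 95% interval −0.64 to 0.12, limma adjusted p = 0.343), and in proestrus vs males 0.06 (−0.32 to 0.44, limma adjusted p = 0.888). Females vs males gave 0.21 (−0.13 to 0.55, limma adjusted p = 1.0), and 0.14 without diestrus replicate 5.

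A single library weighed heavily on the Grin2b values. Without diestrus replicate 3, the log2 fold change was 0.50 in diestrus vs males (SE 0.12, limma adjusted p = 0.369) and −0.44 in proestrus vs diestrus (SE 0.13, limma adjusted p = 0.152). Without diestrus replicate 5, they were 0.22 and −0.16. Without diestrus replicate 4, the proestrus vs diestrus value was −0.17. In proestrus vs males the sign turned to −0.03 without proestrus replicate 5 and to −0.002 without male replicate 2. No reason to leave out any of these libraries was found in their labels.

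**Figure D3:**
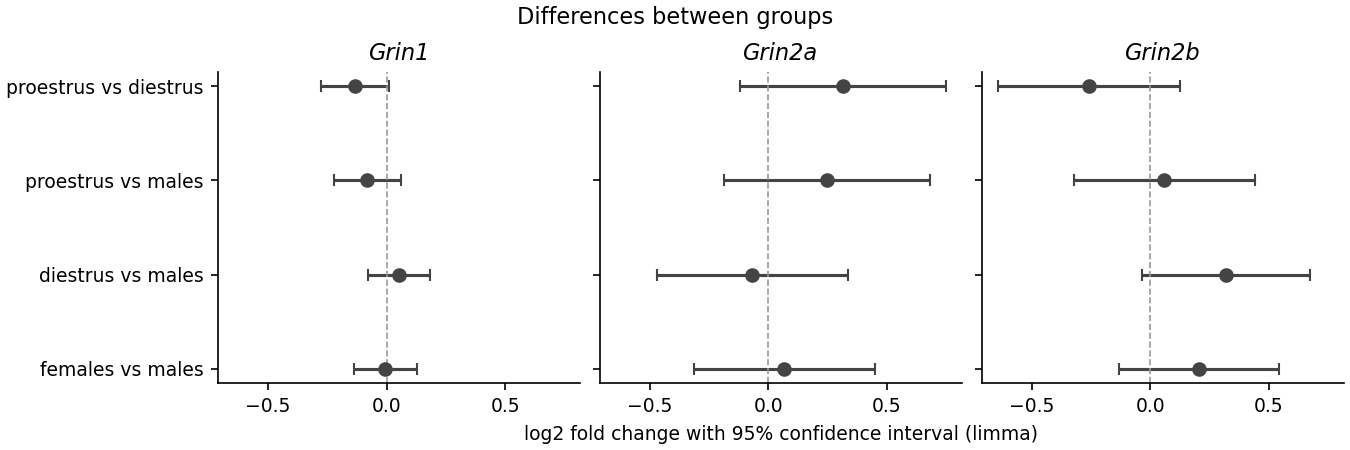
Log2 fold changes (horizontal axis) of Grin1, Grin2a and Grin2b in the 4 comparisons (vertical axis) on log2(DESeq2-normalized count + 1); points are limma estimates and bars are 95% confidence intervals. All 12 intervals include 0, and those of Grin1 are the narrowest.

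The Grin2a to Grin2b ratio was then computed within each library, where the size factor cancels. It is a ratio of reads and not of molecules, since it is not corrected for length. In diestrus the ratio was 0.148, 0.143, 0.126 and 0.0944 in replicates 2 to 5. In proestrus it was 0.159, 0.22 and 0.19 in replicates 1, 3 and 5. In males it was 0.163, 0.149, 0.187 and 0.162 in replicates 2 to 5. All 4 diestrus ratios lay below all 3 proestrus ratios and below all 4 male ratios, although the highest diestrus ratio of 0.148 and the lowest male ratio of 0.149 nearly met. Proestrus and males overlapped.

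The mean ratio was 0.128 ± 0.0241 for the 4 diestrus females, 0.165 ± 0.0158 for the 4 males and 0.19 ± 0.0305 for the 3 proestrus females (all SD). Proestrus exceeded diestrus by 0.58 on the log2 scale, a fold of 1.49 (SE 0.20, two-sided exact permutation p = 0.0286 among 35 splits, adjusted p = 0.0571 by Benjamini-Hochberg over the 4 comparisons). Diestrus differed from males by −0.39, a fold of 0.765 (SE 0.16, two-sided exact permutation p = 0.0286 among 70 splits, adjusted p = 0.0571). In both cases p was the smallest that these group sizes allow, and neither difference passed the correction. Proestrus differed from males by 0.19 (exact permutation p = 0.286, adjusted p = 0.381) and females from males by −0.14 (exact permutation p = 0.533, adjusted p = 0.533). Groups without overlap in a single normalized count were found for 26.6% of all genes between the stages and for 3.84% between diestrus and males. They were found for 13.3% between proestrus and males and for 1.06% between all females and males. The same share was not computed for ratios of other genes.

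Counting error limits single ratios. The 50 to 99 Grin2a reads of a library gave 95% Clopper-Pearson intervals, for counting error only, of 0.0745 to 0.118 for the lowest ratio, in diestrus replicate 5, and of 0.175 to 0.274 for the highest, in proestrus replicate 3. The interval of diestrus replicate 2 ran from 0.116 to 0.186 and that of male replicate 3 from 0.112 to 0.195. These neighbours in the order therefore cannot be told apart. The lowest and highest ratios had intervals that did not overlap, but these libraries were picked by their values out of 11. When single libraries were left out, the log2 difference of proestrus vs diestrus ranged from 0.44, without diestrus replicate 5, to 0.70, without proestrus replicate 1. For diestrus vs males it ranged from −0.46, without diestrus replicate 2, to −0.25, without diestrus replicate 5, which moved it by over 1.5 times. Both directions held in each of these cases. The smaller difference between proestrus and males moved to 0.08 without proestrus replicate 3 and to 0.31 without proestrus replicate 1. That between all females and males moved to −0.03 without diestrus replicate 5, to −0.08 without male replicate 4 and to −0.23 without proestrus replicate 3.

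**Figure D4:**
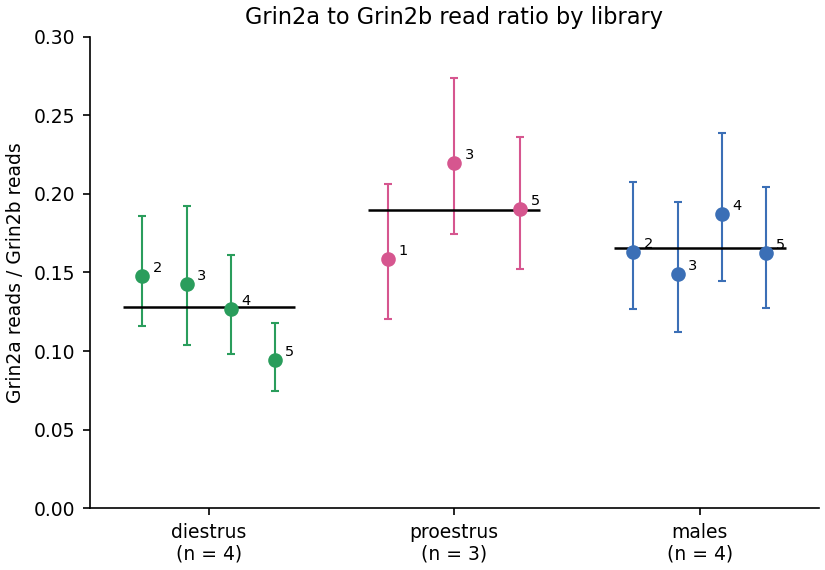
Ratio of Grin2a reads to Grin2b reads (vertical axis, from 0) in each library of the 3 groups; points carry 95% Clopper-Pearson intervals for counting error and replicate numbers, and horizontal lines are group means. The 4 diestrus points, from 0.0944 to 0.148, lie below all others; the interval of diestrus replicate 5 ends at 0.118, below the start of all 3 proestrus intervals, while those of diestrus replicate 2 and male replicate 3 overlap.

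Both GluN2 transcripts were also set against the obligatory subunit. Per 1000 reads of Grin1, Grin2a had 3.55 to 5.72 reads in diestrus, 4.15 to 6.44 in males and 5.42 to 7.82 in proestrus. Per 1000 reads of Grin1, Grin2b had 24.8 to 51.1 reads in diestrus, 27.8 to 39.3 in males and 31.5 to 41.1 in proestrus. In both, every pair of groups overlapped. The difference of the Grin2a to Grin2b ratio between proestrus and diestrus, 0.58 on the log2 scale, is the difference of Grin2a relative to Grin1 (0.45) minus that of Grin2b relative to Grin1 (−0.13). For diestrus vs males, −0.39 is likewise −0.12 minus 0.27.

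Whether the 3 subunits varied together among animals was examined over the 11 libraries. Grin2a and Grin2b had r = 0.36 and rho = 0.46 on log2 values (permutation p = 0.27 and 0.157, adjusted over 3 pairs 0.405 and 0.236). Grin1 and Grin2a had r = −0.59 and rho = −0.63 (permutation p = 0.058 and 0.0439, adjusted 0.174 and 0.132). Grin1 and Grin2b had r = −0.20 and rho = −0.25 (permutation p = 0.546 and 0.469, adjusted 0.546 and 0.469). None passed the correction. The sign of r turned for Grin1 and Grin2a (0.07) and for Grin1 and Grin2b (0.23) after quantile normalization, and r of Grin1 and Grin2a was −0.35 on the scale of total reads. Diestrus replicate 3 had the highest Grin1 and the lowest Grin2a and Grin2b, and without it r was 0.16, −0.42 and 0.02 in the order above. Without the 2 libraries farthest from the median of the first gene, r was −0.02, −0.22 and 0.08, over a range that this choice narrows. Within groups, the deviations from the group means correlated with r = 0.66 for Grin2a and Grin2b, −0.42 for Grin1 and Grin2a and −0.67 for Grin1 and Grin2b, as a description.

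The genes whose pattern over the 11 libraries was most like that of each subunit were found among the other genes whose normalized counts averaged 500 or more, 6067 or 6068 depending on the subunit. They were ENSRNOG00000020862 (r = 0.97) and ENSRNOG00000003562 (r = 0.95) for Grin1, ENSRNOG00000024886 (r = 0.93) and ENSRNOG00000025463 (r = 0.92) for Grin2a, and ENSRNOG00000013506 and ENSRNOG00000047586 (both r = 0.91) for Grin2b. The highest values out of so many genes are high in any case, and they are a description only. The files pair no identifier with a symbol, so that these genes are not named, and other subunits, synaptic partners and cell type markers were not analysed here.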

How the data were processed

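RNA from mPFC punches of 11 rats was made into poly(A)-selected, unstranded libraries. Per the labels and the study's methods, the authors used Trimmomatic 0.32, TopHat2 2.0.11, Bowtie2 2.1.0, Rnor_5.0 with Ensembl release 76, HTSeq 0.6.1p1 on uniquely mapped reads, DESeq2 1.4.5 and edgeR 3.6.7, and dropped genes with few reads. Without strand, reads of an antisense gene cannot be told apart. The deposited values of both tables are a normalized signal per gene, not raw counts. In the DESeq2-normalized table (15607 genes), 100% of values became whole reads (within 0.01) after division by 1 step per library. The edgeR-normalized table (15724 genes) is not scaled to library size.

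limma 3.58.1 (R 4.3.3) was fitted to all genes on log2(normalized count + 1), with a prior variance following abundance and no covariate; p-values were adjusted over all genes (Benjamini-Hochberg, FDR 0.05). The 3 pairwise contrasts came from 1 fit with 3 groups and share libraries; females vs males came from a fit with sex alone. Fold changes on this scale understate changes at low counts. The fit was tested on simulated data. Ratios were compared with exact permutation tests and correlations with 100000 permutations (scipy 1.17.1). As alternatives, edgeR 4.0.16 and DESeq2 1.42.0 took the recovered reads, and other scalings, filters, a replicate block and left-out libraries were tried. Deviations of same-numbered libraries correlated with r from 0.0116 to 0.591, and 6 of 10 libraries correlated best with their own number. Per the paper, males and females were collected on the same days, but whether the numbers mark these days was not tested. The members, lists and tests were chosen with earlier results of these data known. Named genes were the 3 members and the 2 genes most correlated with each. Names of the members came with their identifiers and were not checked, because the RefSeq table used here lists an Ensembl identifier for 0 of its 47357 genes; for that reason the planned lists of other glutamate receptor genes, synaptic partners and cell type markers were not analysed here.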

Additional observations from a re-analysis of the deposited data

How the results depend on the processing

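No alternative brought any of the 3 genes past the FDR, in 120 tests under other scalings, filters and models and 132 without a library; the lowest adjusted p was 0.102, for Grin2a in proestrus vs diestrus with a replicate block (log2 fold change 0.59). Some signs turned. After quantile normalization, Grin1 became 0.0042 in proestrus vs males and 0.00998 in females vs males, and Grin2a 0.0231 in diestrus vs males. On the scale of total reads, added after the data were seen, Grin1 became −0.00137 in diestrus vs males (median gene moved by −0.0521), and with a replicate block it became 0.0129 in females vs males. Without single libraries, Grin1 in females vs males ranged from −0.0413 to 0.0239, Grin2a in females vs males from −0.0177 to 0.164, Grin2a in diestrus vs males from −0.155 to 0.0566 and Grin2b in proestrus vs males from −0.0264 to 0.134. The correlation of Grin1 with Grin2a became 0.0277 and that with Grin2b 0.337 in the edgeR-normalized table, which is not scaled to depth, and 0.0688 and 0.226 after quantile normalization. The causes were not tested. The ratio kept its directions in all alternatives, with p of 0.0571 in proestrus vs diestrus in the edgeR-normalized table (exact permutation, adjusted 0.114).

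Same-numbered libraries deviated together more (median r 0.15, 6 of 8 pairs over 0.1) than others (median −0.042, 5 of 32). A pairing by number is thus possible, but the main fits leave the number out. With it as a block, 0 of 12 tests passed and 3 had an unadjusted p below 0.05 (Grin2a in proestrus vs diestrus and vs males, the latter 0.52 with limma adjusted p = 0.352, and Grin2b in diestrus vs males), as did 4620, 2028 and 2138 of all genes in these 3 comparisons. Paired by number, the log2 ratio of proestrus differed by 0.82 from diestrus and by 0.40 from males (2 pairs each, exact permutation p = 0.5 for both), and that of diestrus by −0.39 from males (4 pairs, exact permutation p = 0.125). Over all genes, limma calls in proestrus vs diestrus (395) became 1076 with DESeq2, 817 with only both groups and 16 without the variance trend; leaving out diestrus replicate 5 gave 1774, and leaving out proestrus replicate 1 or 3 gave 0 (2766 and 2960 at an unadjusted p below 0.05). In proestrus vs males (13) they became 118 with DESeq2, 106 in the edgeR-normalized table, 23 with only both groups, 3 with the block and 2 without the trend. In diestrus vs males (20) the counts were 117, 108, 47 with the block, 6 with a mean of at least 50 and 4 without the trend, and in females vs males (21) 77, 38 and 1 without the trend. Without single libraries, the latter 3 ranged from 2 to 26, 1 to 88 and 1 to 24.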
